A study of Mus musculus with 6 samples.

Results

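Respiratory complex I genes were taken as all genes whose symbol begins with Nduf, found among the array's probes through their RefSeq accessions. The rule gave 46 genes on 54 probes, out of 22911 named genes and 56605 probes on the array. Of these, 38 encode subunits, or relatives of subunits, and 8 (Ndufaf1 to Ndufaf8) encode assembly factors. The cells were C5aR+ LysoDCs of the mouse Peyer's patch, which are lysozyme-expressing mononuclear phagocytes that carry the receptor for the complement fragment C5a. In the treated group (C5a 1 to 3) sorted cells received recombinant C5a at 100 nM for 3 h. The comparison group (untreated 1 to 3) received C5a at 0 nM, and the labels do not state how long it was cultured. Both groups were enriched with CD11c beads, sorted, and cultured in the same medium with the growth factors CSF-1 and CFS-2 (as the labels spell it). The labels give no strain, age, sex or number of mice for any sample, and do not say whether replicates are separate cell preparations, so p-values measure only the spread between these samples, which may be technical.

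Complex I is the entry point of the mitochondrial respiratory chain. It takes electrons from NADH at the tip of an arm that reaches into the matrix, passes them along iron-sulfur clusters to ubiquinone, and uses the energy to pump protons through an arm embedded in the inner membrane. A small catalytic core is surrounded by many accessory subunits, the membrane-embedded core is encoded by mitochondrial DNA, and dedicated assembly factors join the modules and then leave. In macrophages complex I is also known as a source of superoxide during activation.

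Many nuclear genes of the respiratory chain are controlled through binding sites for NRF-1, for ETS factors such as GABP, and for YY1. RefSeq promoter windows (GRCm38.p6, 250 bases before to 50 after the start) were at hand for 40 of the 46 genes. They were searched on both strands for the NRF-1 motif (GCGC, then any base, then TGCGC), the ETS motif CCGGAAG and the YY1 motif AAGATGGCG. The 40 genes had 42 windows. The NRF-1 letters stood in 10 of the 42 windows (23.8%, in 9 genes), against 4.60% of all 32851 windows. The ETS letters stood in 6 of the 42 (14.3%, in 6 genes), where 8.86% of all windows held them. The YY1 letters also stood in 6 of the 42 (14.3%, in 6 genes), where 1.40% of all windows held them. At least 1 of the 3 was present in 20 of the 42 windows (47.6%), against 13.6% of all windows, and in 19 of the 40 genes. The 19 genes included 12 of the 26 genes with a window whose signal could be tested, and 4 of the 7 assembly factors with a window. The rest were the subunit genes Ndufa8, Ndufa11 and Ndufb6, which were not tested. The 120 bases just before the start are shown for 3 subunit genes whose signal was measured and for an assembly factor whose signal was below background on every array, with motif letters in capitals. The letters are a description of these windows and are not shown to be bound in these cells.
Ndufs6 (NRF-1, chr13:73328483-73328602, minus strand): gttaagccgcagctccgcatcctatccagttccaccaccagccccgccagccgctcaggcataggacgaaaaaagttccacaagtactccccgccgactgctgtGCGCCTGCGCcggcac
Ndufb4 (NRF-1, chr16:37654369-37654488, minus strand): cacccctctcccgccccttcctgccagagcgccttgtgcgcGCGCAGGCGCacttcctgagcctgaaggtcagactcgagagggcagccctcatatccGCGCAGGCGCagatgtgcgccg
Ndufb7 (ETS, chr8:83566638-83566757, plus strand): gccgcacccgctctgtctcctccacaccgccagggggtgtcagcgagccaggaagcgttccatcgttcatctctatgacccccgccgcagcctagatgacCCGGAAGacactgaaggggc
Ndufaf4 (NRF-1, chr4:24897963-24898082, plus strand): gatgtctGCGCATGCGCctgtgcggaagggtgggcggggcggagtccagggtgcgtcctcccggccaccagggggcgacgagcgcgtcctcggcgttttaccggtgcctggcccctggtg

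The arrays differed in brightness, which bears on every value below. Before scaling, the 75th percentile of signal over probes detected everywhere ran from 154 to 377 on the C5a arrays and from 109 to 460 on the untreated arrays, with number 3 the dimmest and number 2 the brightest in both groups. The number of probes well above background ran from 3668 to 6651 on C5a arrays and from 2727 to 6959 on untreated arrays. Of 15 markers of mononuclear phagocytes, 11 were well above background on at least 3 arrays, among them Lyz1, Lyz2, Itgax and C5ar1, while Cx3cr1, Mertk, Fcgr1 and Ccr2 were on none. Markers of epithelium (0 of 6), stroma (0 of 4), endothelium (0 of 3) and T cells (0 of 4) were detected on no array. Of B cell markers 2 of 5 were detected on at least 1 array, with Cd79b on at least 3. All 3 plasma cell markers (Jchain, Xbp1 and Sdc1) were detected on at least 1 array, and Xbp1 was detected on all 6. All 3 plasmacytoid cell markers were detected on at least 3 arrays. The part of such cells in the results was not tested. In bulk samples, fewer expressing cells and less RNA per cell cannot be told apart.

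Most subunit genes were detected, while most assembly factors, like most named genes on the array, were not. A gene was counted as detected where a probe was flagged well above background by the scanner software. On at least 3 of the 6 arrays this held for 29 of 46 Nduf genes (63.0%), against 14.3% of all named genes, and all 29 were subunits (76.3% of the subunits). It held on all 6 arrays for 12 genes. Of the 8 assembly factors 7 were detected on no array, a state shared by 77.8% of all named genes. Detection depends on each probe's own brightness as well as on transcript abundance, so it sets no order between genes.

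**Figure D1:**
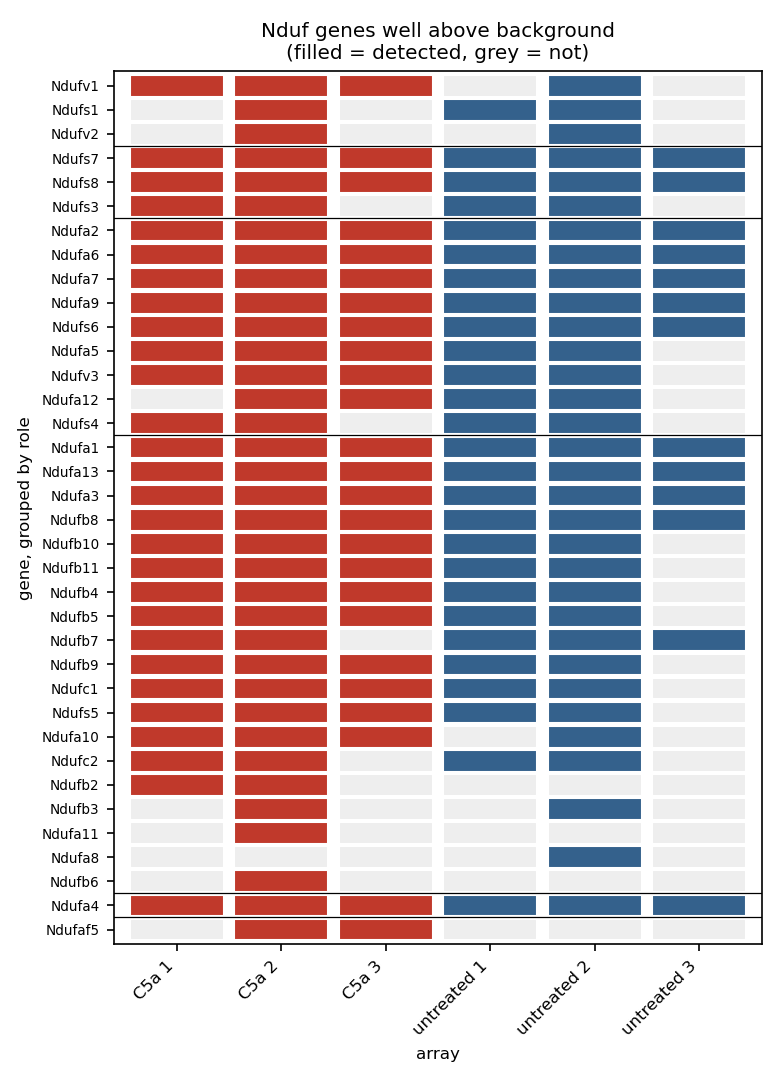
Detection of the 36 Nduf genes found on at least 1 array (rows, grouped by role with lines between roles) on the 6 arrays (columns, C5a left, untreated right); a filled cell means that a probe of the gene was well above background. The bottom row is Ndufaf5, filled on C5a 2 and C5a 3 only, and untreated 3 has the fewest filled cells, at 13.

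By array, 28, 35 and 25 Nduf genes were detected on C5a 1 to 3, against 27, 32 and 13 on untreated 1 to 3. The low count was that of the dimmest array, untreated 3, where only 2727 probes of any kind were detected. Its detection floor, the lowest scaled log2 signal of any detected probe, was -3.14. The floors of C5a 1 to 3 were -4.50, -5.17 and -3.81, and those of untreated 1 and 2 were -3.67 and -5.37. The part of brightness in these counts was not tested.

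The genes not measured had distinct roles. Ndufab1, the mitochondrial acyl carrier protein, and Ndufa4l2, a relative of Ndufa4 induced in hypoxia, were detected on no array. Ndufv2, an iron-sulfur protein beside the NADH site, and Ndufb3 were each detected on C5a 2 and untreated 2 alone, the brightest arrays. Ndufa11 and Ndufb6, of the membrane arm, were detected on C5a 2 alone, and Ndufa8, also of that arm, on untreated 2 alone. Ndufb2 was detected on C5a 1 and C5a 2 and on no untreated array. With most of their arrays below background these genes were not tested, and no fold is given. A further 8 Nduf symbols of the RefSeq table had no probe matched here, of which Ndufb1, Ndufb4b and Ndufb4c are listed as protein-coding.

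Among assembly factors, Ndufaf5, which hydroxylates the core subunit Ndufs7, was detected on C5a 2 and C5a 3 and on no untreated array. Its signal was -5.39, -4.22 and -3.47 in C5a 1 to 3, against -4.26, -4.62 and -4.22 in untreated 1 to 3. The groups overlapped and most arrays did not detect Ndufaf5, so no fold is given. The detection floors were -5.17 on C5a 2 and -3.81 on C5a 3. On untreated 2 its signal also lay above the floor, which was -5.37, but was not detected. The floor therefore does not divide detected from undetected values. Those detected on no array were Ndufaf1, a partner of Acad9 and Ecsit in building the membrane arm, Ndufaf3 and Ndufaf4, which act together, Ndufaf7, a methyltransferase, Ndufaf2, a relative of the subunit Ndufa12, and Ndufaf6 and Ndufaf8.

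No complex I gene differed between C5a and untreated cells past the test. Signals are log2 values, with the 75th percentile of the probes detected on all arrays set to 0 on each array. A difference is the C5a mean less the untreated mean, with 3 samples in each group. In limma with Benjamini-Hochberg adjustment over all 4488 genes tested, 0 of 29 Nduf genes were called, where 0 of 4488 (0%) were called in all (lowest adjusted p 0.999 among Nduf genes). Of the 4488, 3276 had a symbol, and the rest, here and in the shares below, were probes without a symbol counted as genes. At an unadjusted p under 0.05 there were 0 Nduf genes, beside 105 of all genes (2.34%). With replicate number as a block these counts were 0 Nduf genes and 190 of all genes (4.23%), and 0 of all genes passed the adjusted threshold. The 3 C5a samples did not all lie on 1 side of the 3 untreated samples for any Nduf gene, while they did for 255 genes in all (5.68%). Of the 29 differences 17 were positive and 12 negative, beside 54.9% positive among all genes. The median was 0.12 for the Nduf genes and 0.04 for all genes, and the Nduf median was -0.10 without C5a 1 and also without untreated 3.

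**Figure D2:**
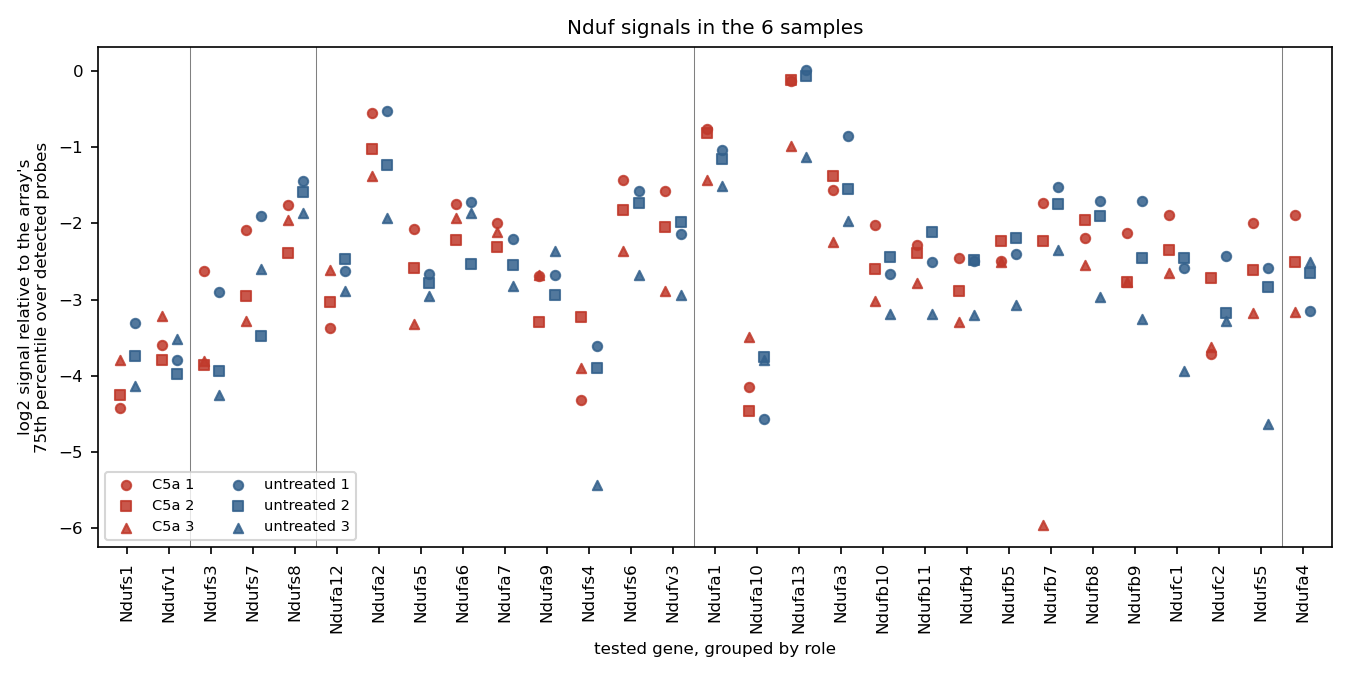
Log2 signal of the 29 tested Nduf genes (x axis, grouped by role) in each sample, relative to the array's 75th percentile over detected probes; C5a samples are red and left, untreated samples blue and right, and the symbol gives the replicate number. Red and blue points overlap for every gene, and triangles, number 3, are often lowest in both colours.

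None of the core subunits that take up electrons from NADH was detected on all 6 arrays. Ndufs1, the large iron-sulfur protein of this module, was at -4.42, -4.26 and -3.79 in C5a 1 to 3, against -3.31, -3.74 and -4.13 in untreated 1 to 3. C5a 1 was lowest and untreated 1 highest, and the groups overlapped (difference -0.43, SE 0.33, 95% interval -1.20 to 0.34). Ndufs1 was detected on 1 C5a and 2 untreated arrays. Ndufv1, which holds the flavin that accepts electrons from NADH, differed by 0.23 (SE 0.29) and was detected on 3 C5a arrays and 1 untreated array.

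Of the core subunits that lead to ubiquinone, Ndufs7 and Ndufs8 were detected on all 6 arrays. Ndufs8, an iron-sulfur protein, was at -1.76, -2.38 and -1.95 in C5a 1 to 3, against -1.45, -1.59 and -1.86 in untreated 1 to 3. Its lowest values were in C5a samples, but C5a 1 lay above untreated 3. The difference was -0.40 (SE 0.29, 95% interval -1.08 to 0.28, limma unadjusted p = 0.209, adjusted p = 0.999), and it was negative in each of the 3 same-numbered pairs. Ndufs7, which carries the last cluster before ubiquinone, was at -2.08, -2.95 and -3.28 in C5a samples, against -1.90, -3.48 and -2.60 in untreated samples. Number 1 was highest in both groups and the difference was -0.11 (SE 0.49). Ndufs3, another core protein of this module, differed by 0.27 (SE 0.49).

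Accessory subunits of the matrix arm had 7 positive and 2 negative differences, with a median of 0.14, beside 54.9% positive among all genes. Without untreated 3, Ndufs4 (-0.06), Ndufa2 (-0.10), Ndufv3 (-0.10) and Ndufs6 (-0.22) turned negative. Ndufa7 (0.24), Ndufa6 (0.17) and Ndufa5 (0.07) stayed positive. Ndufa2, a subunit with a thioredoxin-like fold, was at -0.55, -1.03 and -1.37 in C5a 1 to 3, against -0.53, -1.23 and -1.92 in untreated 1 to 3. Number 1 was highest and number 3 lowest in both groups (difference 0.25, SE 0.42). Ndufs6, a zinc-binding subunit, kept the same order at -1.43, -1.83 and -2.36 in C5a samples, against -1.57, -1.73 and -2.67 in untreated samples. Its difference was 0.12 (SE 0.40).

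Ndufa7 had the smallest SE of the Nduf genes. It was at -1.99, -2.30 and -2.12 in C5a 1 to 3, against -2.20, -2.55 and -2.82 in untreated 1 to 3. All 3 same-numbered pairs were higher with C5a, but C5a 2 lay below untreated 1. The difference was 0.38 (SE 0.28, 95% interval -0.27 to 1.04, limma unadjusted p = 0.211, adjusted p = 0.999), and with normexp background correction it was -0.05.

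Ndufa6, which binds the acyl carrier protein, was at -1.74, -2.22 and -1.93 in C5a samples, against -1.72, -2.54 and -1.86 in untreated samples. Its values in same-numbered samples nearly coincided for numbers 1 and 3 (difference 0.08, SE 0.32). Ndufa9, which binds a nicotinamide nucleotide near the ubiquinone site, was at -2.69, -3.29 and -2.68 in C5a samples, against -2.68, -2.94 and -2.37 in untreated samples. Number 2 was lowest in both groups, and the difference of -0.22 (SE 0.31) was negative in all 3 pairs, but it was -0.022 without C5a 2. The others were not detected on all arrays. Ndufs4, whose loss in mice causes a fatal brain disease, differed by 0.50 (SE 0.54), with -5.44 in untreated 3 as its lowest value, and without untreated 3 the difference was -0.06. Ndufa12 differed by -0.35 (SE 0.30), Ndufv3 by 0.19 (SE 0.43) and Ndufa5 by 0.14 (SE 0.37). The other kept probe of Ndufa5 differed by 0.66 (SE 0.39).

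Accessory subunits of the membrane arm had 7 positive and 7 negative differences. Ndufa13, also known as GRIM-19 for its link to interferon-induced cell death, was at -0.12, -0.12 and -0.99 in C5a 1 to 3, against 0.02, -0.06 and -1.13 in untreated 1 to 3. Number 3 was clearly lowest in both groups, and the group means were close, at -0.41 ± 0.50 with C5a and -0.39 ± 0.64 in untreated cells (SD). The difference was -0.02 (SE 0.42, 95% interval -1.02 to 0.98). Ndufa1, a small X-linked subunit needed for assembly, was at -0.76, -0.82 and -1.42 in C5a samples, against -1.04, -1.16 and -1.50 in untreated samples. It was higher with C5a in all 3 pairs, within overlapping groups (difference 0.23, SE 0.30).

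Ndufb8 was at -2.20, -1.95 and -2.54 in C5a 1 to 3, against -1.71, -1.91 and -2.96 in untreated 1 to 3 (difference -0.04, SE 0.40). The untreated samples spread more widely than the C5a samples and enclosed them. Ndufa3, a small membrane subunit, was at -1.56, -1.37 and -2.25 in C5a samples, against -0.86, -1.54 and -1.96 in untreated samples. Its difference was -0.27 (SE 0.39), while its other kept probe differed by 0.74 (SE 0.56), so the probes of Ndufa3 did not give the same sign. That other probe was detected on 3 C5a arrays but 1 untreated array.

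Besides Ndufa7, the positive differences with the smallest p were those of Ndufc1 and Ndufs5. Ndufc1 was at -1.89, -2.35 and -2.65 in C5a 1 to 3, against -2.58, -2.45 and -3.94 in untreated 1 to 3. Untreated 3, where the gene was not detected, was well below the others, and C5a 3 lay below untreated 1 and 2. The difference was 0.69 (SE 0.46, 95% interval -0.39 to 1.77, limma unadjusted p = 0.173, adjusted p = 0.999), and without untreated 3 it was 0.22. Ndufs5, a subunit on the intermembrane space side, was at -2.00, -2.60 and -3.17 in C5a samples, against -2.59, -2.83 and -4.63 in untreated samples. Untreated 3 was again lowest and not detected. The difference was 0.76 (SE 0.59, limma unadjusted p = 0.242, adjusted p = 0.999), and without untreated 3 it was 0.12.

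The largest Nduf difference, that of Ndufb7, rested on 1 array. Ndufb7, also on the intermembrane space side, was at -1.74, -2.23 and -5.95 in C5a 1 to 3, against -1.52, -1.74 and -2.35 in untreated 1 to 3. C5a 3 stood far below the other 5 samples and was the only array without detection. Its spot carried no outlier mark. The difference was -1.44 (SE 1.04, 95% interval -3.89 to 1.02, limma unadjusted p = 0.21, adjusted p = 0.999), and it was -0.11 without C5a 3.

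The other membrane arm genes were closer to 0. Ndufc2 differed by -0.39 (SE 0.39), Ndufb10 by 0.22 (SE 0.36), Ndufb5 by 0.14 (SE 0.31) and Ndufb11, an X-linked subunit, by 0.12 (SE 0.35). Ndufb4 differed by -0.14 (SE 0.35), Ndufb9, a binding partner of the acyl carrier protein, by -0.08 (SE 0.44) and Ndufa10, a subunit with a kinase-like fold, by 0.00 (SE 0.38). Ndufa10 was detected on 3 C5a arrays but 1 untreated array, so that most of its untreated values are at background. Ndufa4, named as a complex I subunit but now placed with cytochrome c oxidase, was detected on all 6 arrays. It was at -1.89, -2.51 and -3.16 in C5a 1 to 3, against -3.15, -2.65 and -2.50 in untreated 1 to 3. C5a 1 was highest and C5a 3 lowest of the 6 samples, with the untreated samples between them (difference 0.25, SE 0.39).

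**Figure D3:**
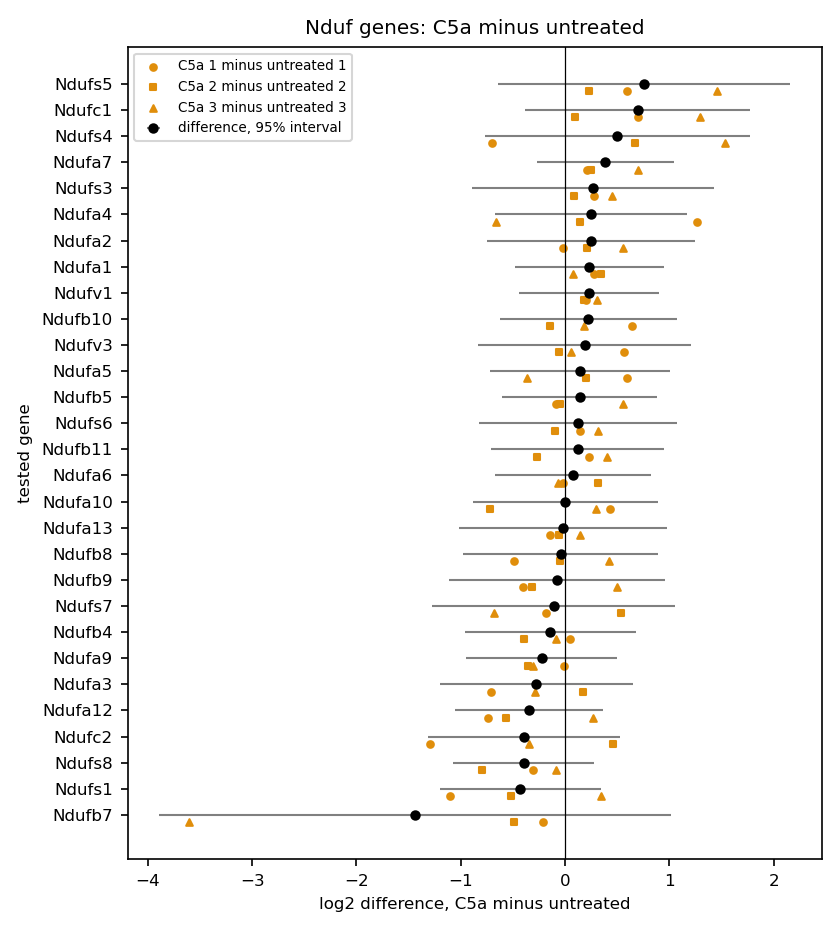
Log2 difference, C5a minus untreated, of the 29 tested Nduf genes (black points, with the 95% interval of the limma fit as grey bars) and of each same-numbered pair of samples (orange symbols by number). Every interval crosses 0, and pair 3 of Ndufb7 lies farthest left, at -3.60.

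The intervals give the precision for each gene on its own, with no adjustment for the number of genes tested. All 29 intervals spanned 0, with a median half-width of 0.92 on the log2 scale, which is a 1.89-fold change to either side, against 1.83-fold over all genes tested. The narrowest was that of Ndufa7 (1.58-fold) and the widest that of Ndufb7 (5.48-fold). The same-numbered pairs did not move alike. The median Nduf difference was -0.01 for pair 1, -0.05 for pair 2 and 0.27 for pair 3, and 14, 14 and 19 of the 29 genes were positive. In all 3 pairs 6 genes were positive (Ndufc1, Ndufa7, Ndufs5, Ndufv1, Ndufa1 and Ndufs3) and 3 were negative (Ndufs8, Ndufb7 and Ndufa9), together 31.0% of 29 where 25.3% of all genes tested had a like sign in all pairs. Of these genes Ndufc1, Ndufs5, Ndufv1 and Ndufs3 were not detected on untreated 3. Ndufs3 and Ndufb7 were not detected on C5a 3. The pair 3 values of these genes are therefore not measured sizes. The genes singled out by pair were chosen after their values were seen.

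Signals of the tested Nduf genes, detected or not, also varied with replicate number. The median signal of the 29 genes was -2.07, -2.51 and -2.79 in C5a 1 to 3, against -2.42, -2.47 and -2.95 in untreated 1 to 3, so that number 3 was lowest in each group. Only 13 of the 29 genes were detected on untreated 3. Most of its Nduf values, among them the median, were therefore not well above background. Over all genes tested the medians lay between -2.66 and -2.55 on every array. Untreated 3 was the lowest untreated sample for 23 of 29 Nduf genes (79.3%, against 40.8% of all genes tested), and C5a 3 was the lowest C5a sample for 17 (58.6%, against 42.4%). Both held for 15 Nduf genes, or 51.7%, beside 25.7% of all genes, and these included Ndufa13, Ndufa1, Ndufa2, Ndufs6 and Ndufb8. Array brightness moved with this pattern, since number 3 was the dimmest array in each group, and its part was not tested. The members share the same 6 arrays and are not independent.

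**Figure D4:**
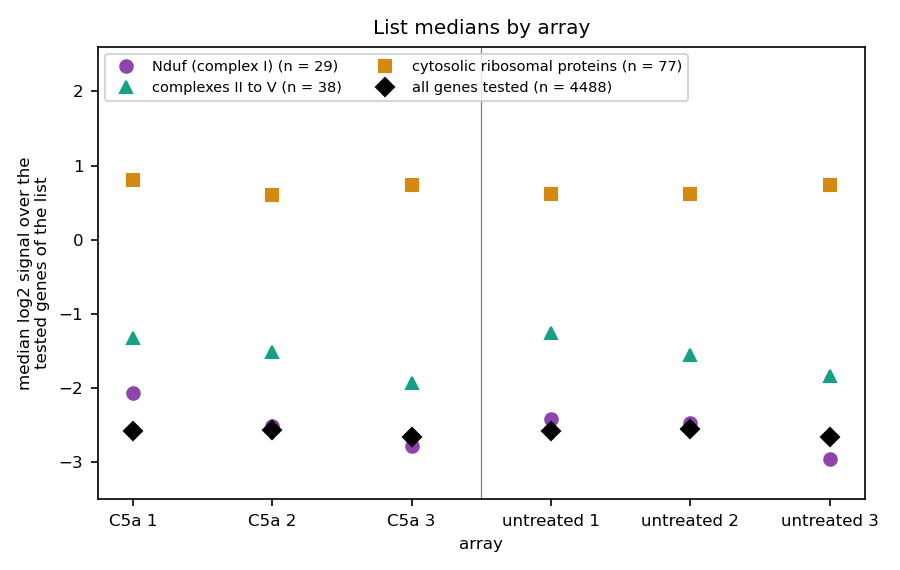
Median log2 signal over the tested genes of each list (symbols) on each array (x axis, C5a left, untreated right). The Nduf and complexes II to V medians are lowest on number 3 of each group, while the ribosomal protein medians stay between 0.61 and 0.81.

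Genes of the rest of the respiratory chain, complexes II to V, were described in the same way. Of 42 on the array, 38 were tested, with 23 positive and 15 negative differences and a median of 0.08. This median turned negative without C5a 1 (-0.011), without untreated 3 (-0.022) and with normexp background correction (-0.086). By limma with Benjamini-Hochberg adjustment 0 were called, and 0 had an unadjusted p under 0.05. Number 3 was lowest in both groups for 17 of 38 (44.7%). The smallest p values were those of Cox6c, a cytochrome c oxidase subunit, at 1.39 (SE 0.89), and Sdha, the flavoprotein of complex II, at 0.64 (SE 0.42). Cox6c was at -0.57, -1.48 and -1.41 in C5a 1 to 3, against -1.26, -1.60 and -4.76 in untreated 1 to 3, where untreated 3 stood far below the other samples. Without untreated 3 the difference was 0.28 for Cox6c and also 0.28 for Sdha. Sdha was detected on 3 C5a arrays but 1 untreated array, so that most of its untreated values are at background. Cytosolic ribosomal protein genes, an abundant class outside the mitochondrion, had 77 tested of 82 and a median difference of 0.03, with 0 called and 2 at an unadjusted p under 0.05, which were Rpl13a at -2.42 (SE 0.48) and Rpl14 at 2.13 (SE 0.43). Number 3 was lowest in both groups for 5 of 77 (6.49%). The lists differ in level, since array medians were 0.61 to 0.81 for ribosomal genes but -2.95 to -2.07 for Nduf genes. All 77 tested ribosomal genes were detected on all 6 arrays. The part of signal level in these shares was not tested. No test was run between these lists.

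Other genes that serve complex I were mostly detected on no array, a state shared by 77.8% of all named genes. Of 11 assembly factors with other symbols, 7 were detected on no array and 3 were tested. Timmdc1, which helps to build the membrane arm, was at 2.56, 2.11 and 2.48 in C5a 1 to 3, against 2.87, 2.33 and 2.74 in untreated 1 to 3. Each pair was lower with C5a while the groups overlapped (difference -0.27, SE 0.28), and Dmac1 differed by -0.35 (SE 0.33). Of 11 regulators of mitochondrial biogenesis, 7 were detected on no array, again beside 77.8% of all named genes, and 2 were tested. Yy1, a transcription factor whose letters were searched above, was at -3.71, -3.26 and -3.72 in C5a samples, against -4.90, -3.62 and -5.28 in untreated samples. Yy1 was detected on 2 C5a arrays and 1 untreated array, so that most untreated values are at background and the fitted difference of 1.04 (SE 0.46, limma adjusted p = 0.999) is not a measured size. The nuclear receptor gene Esrra was also detected on 2 C5a arrays and 1 untreated array. Its fitted difference of -0.21 (SE 0.70) is likewise not a measured size. No probe was matched here to the 13 mitochondrially encoded respiratory genes, so the membrane core of complex I was not analysed here.

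The sign of the Nduf median changed with the processing. When each array was scaled over all probes the median of all genes moved to 0.40 and that of the Nduf genes to 0.48, so that the Nduf genes stayed 0.08 above it, as in the values given above. With normexp background correction the Nduf median was -0.11 and that of all genes -0.12. All untreated arrays and C5a 1 were in row 1 of the slide and C5a 2 and 3 in row 2, so that row and group were largely the same. Within row 1, which compares C5a 1 alone with the 3 untreated arrays, the Nduf median was 0.30 and that of all genes 0.14. No Nduf gene had an unadjusted p under 0.05 in limma under any of the 15 alternatives.

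**Figure D5:**
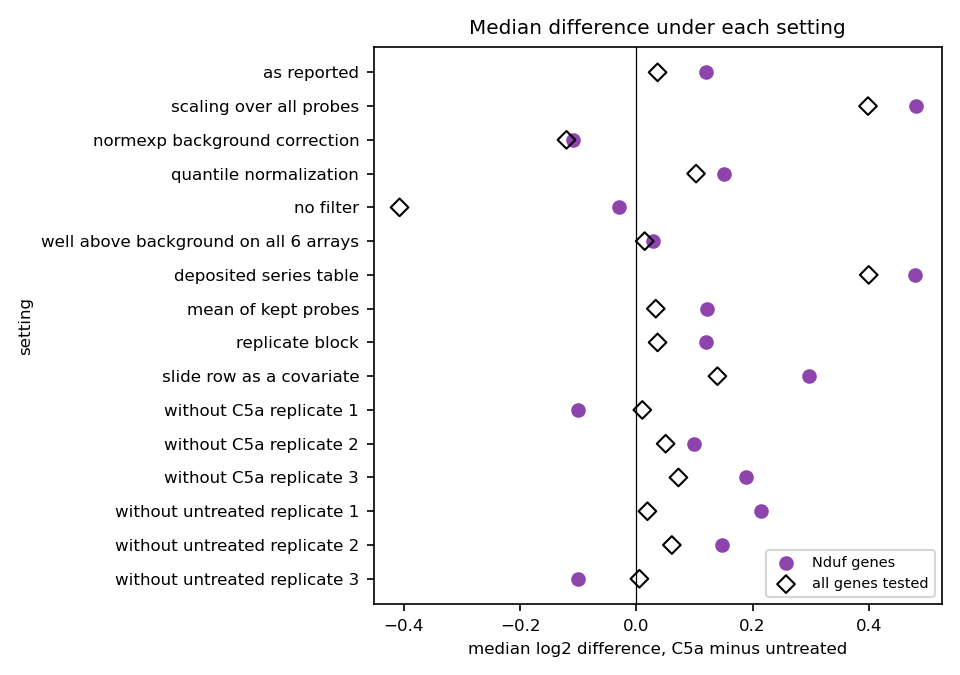
Median log2 difference, C5a minus untreated, over the Nduf genes (filled circles) and over all genes tested (open diamonds) under each setting (rows). The circles lie on both sides of 0, between -0.11 and 0.48.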

How the data were processed

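RNA from 6 samples (3 C5a, 3 untreated) was hybridised to 1-colour Cy3 Agilent arrays, 1 array per sample, all on 1 slide. Per the file headers, Feature Extraction software read the arrays, and the deposited scanner files give each spot's intensity as a processed, background-subtracted signal, with flags of 0 or 1, and no scaling between arrays. The deposited series table holds log2 values of the authors. Its differences between columns lay within 0.01 of those of processed signal scaled over all probes for 98.7% of values, which gives its scale and direction. What was subtracted per probe to centre it is unknown.

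Control spots were left out, as were spots with an outlier mark where a probe had others. All 54 Nduf probes had 1 spot, and none of their 324 values carried an outlier mark. No spot was saturated. The design cites build mm9, so the table's gene coordinates were not used with it. Accessions, without versions, matched 32994 of 56605 probes to a symbol of GRCm38.p6. Values were scaled to each array's 75th percentile over those 2370 probes that every array detected. A probe was kept where 3 or more arrays detected it (4958 probes), and the brightest per gene was tested (4488 genes). Of the 4488, 3276 had a symbol, and each probe without a symbol was counted as a gene of its own. The test was limma 3.58.1 in R 4.3.3 (lmFit, eBayes) with Benjamini-Hochberg adjustment at 0.05, and it was tested on simulated data. Precision is limited by the number of arrays.

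Same-numbered samples deviated together from their group means over all genes tested (r = 0.21, 0.27 and 0.38 for numbers 1 to 3). The numbers were therefore taken as pairs from the data. Over the Nduf genes alone these r were 0.14, 0.28 and 0.28, but C5a 2 with untreated 1 gave 0.23. Array brightness followed the numbers as well, and its part was not tested. Signs by pair rest on the same values that gave the pairs. The labels do not say what a number marks. Alternatives were the scaling, background correction, filters, value source, probe choice, replicate block, slide row and leaving out each sample. gMedianSignal stood in for the mean signal in normexp (offset 50).

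All tested Nduf genes are named, and 1 gene that was not tested is counted but not reported here. Values per sample are given for those detected on all arrays and for the 3 with the smallest p in each direction, and of other lists the 2 with the smallest p are named. Members, roles and lists were chosen with earlier results of these data known.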

Additional observations from a re-analysis of the deposited data

How the results depend on the processing

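Under all 15 alternatives 0 Nduf genes were called by limma with Benjamini-Hochberg adjustment, and the lowest adjusted p ran from 0.926 to 1.00. Over all genes 0 were called except without the filter on dim probes, where 47 of 46522 were, 9 positive and 38 negative. That fit added genes that were below background on most arrays. With the replicate block 0 of 29 Nduf genes were called and the block changed no other call, while genes of any kind at an unadjusted p under 0.05 numbered 190 (4.23%) with it and 105 without it. Detection on all 6 arrays rather than 3 left 12 Nduf genes.

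Signs were unsettled. Of the 29 Nduf differences, 5 kept their sign in every alternative in which they were measured (Ndufc1, Ndufs8, Ndufs1, Ndufc2 and Ndufa1), but scaling over all probes left -0.036 for Ndufs8, -0.066 for Ndufs1 and -0.029 for Ndufc2. Scaled over all probes, the medians were 0.48 for Nduf genes, 0.44 for complexes II to V, 0.095 for assembly factors with other symbols and 0.39 for ribosomal proteins, and Ndufa12 (0.015), Ndufa9 (0.14), Ndufa3 (0.088), Ndufb4 (0.22), Ndufs7 (0.25), Ndufb9 (0.29), Ndufb8 (0.32), Ndufa13 (0.34), Dmac1 (0.017), Timmdc1 (0.095) and Esrra (0.15) turned positive. In the deposited series table, which has that scaling, the medians were 0.48, 0.44, 0.10 and 0.39, and the same genes were at 0.01, 0.13, 0.09, 0.22, 0.26, 0.28, 0.32, 0.34, 0.017, 0.10 and 0.15. The shift of the median of all genes to 0.40 is part of these values by construction. With normexp Ndufa7 (-0.047), Ndufs5 (-0.035), Ndufs4 (-0.0020), Ndufv1 (-0.11), Ndufa4 (-0.024), Ndufb10 (-0.085), Ndufs3 (-0.16), Ndufb5 (-0.18), Ndufa5 (-0.044), Ndufb11 (-0.18), Ndufa10 (-0.22), Sdha (-0.085) and Yy1 (-0.071) turned negative and Timmdc1 (0.013) positive; the cause was not tested. The mean of both kept probes put Ndufa3 at 0.23 and Ndufa5 at 0.40. With slide row as a covariate, which leaves C5a 1 against the untreated arrays, the ribosomal median was 0.12, and Ndufb7 (0.13), Ndufb4 (0.28), Ndufs7 (0.58), Ndufb9 (0.35), Ndufa13 (0.27), Dmac1 (0.012), Esrra (1.03) and Ndufa10 (-0.11) turned. Without the filter the median of biogenesis regulators was -0.21, over more genes. Quantile normalization turned no Nduf sign.

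Leaving out each sample in turn gave ranges of -0.060 to 0.85 for Ndufs4, -0.53 to 0.025 for Ndufa3, -0.070 to 0.57 for Ndufa4, -0.039 to 0.46 for Ndufb10, -0.10 to 0.60 for Ndufa2, -0.14 to 0.67 for Ndufs3, -0.12 to 0.32 for Ndufb5, -0.11 to 0.55 for Ndufv3, -0.38 to 0.066 for Ndufb4, -0.15 to 0.48 for Ndufa5, -0.17 to 0.37 for Ndufb11, -0.22 to 0.37 for Ndufs6, -0.17 to 0.23 for Ndufa6, -0.52 to 0.27 for Ndufs7, -0.47 to 0.30 for Ndufb9, -0.43 to 0.20 for Ndufb8, -0.39 to 0.27 for Ndufa13, -0.27 to 0.22 for Ndufa10 and -0.83 to 0.59 for Esrra. The other Nduf ranges were -0.36 to -0.022 for Ndufa9, 0.22 to 0.96 for Ndufc1, -0.54 to -0.22 for Ndufs8, -2.22 to -0.11 for Ndufb7, 0.24 to 0.55 for Ndufa7, -0.63 to -0.22 for Ndufs1, 0.12 to 1.14 for Ndufs5, -0.54 to -0.16 for Ndufa12, -0.71 to -0.12 for Ndufc2, 0.069 to 0.36 for Ndufv1 and 0.098 to 0.45 for Ndufa1. The median of complexes II to V ran from -0.022 to 0.21. The ribosomal median ran from -0.022 to 0.12. Assembly factors (Ndufaf) gave no difference where the filter was used, since none passed it. Without the filter all 46 Nduf genes entered the fit, with a median of -0.03, against -0.41 over all genes. The Nduf genes added there were below background on most arrays. Genes below background on most arrays have no measured difference here.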
